A study of Homo sapiens with 9 samples.

Results

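The mitochondrial ribosomal protein genes described here are the rows of the count table whose symbol is MRPL or MRPS followed by a number, with pseudogene symbols left out. They numbered 78 of the 17637 genes in the table, 49 with an MRPL symbol (large subunit) and 29 with an MRPS symbol (small subunit). No pseudogene symbol matched the pattern, and all 78 were among the 15309 genes that passed the filter on low counts. Their loci lie on 21 chromosomes, and gene positions below are those of GENCODE v29 on GRCh38, from the first to the last base of the gene with introns included.

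The mitochondrial ribosome, or mitoribosome, translates the few messenger RNAs (mRNAs) that mitochondrial DNA encodes, all of which specify subunits of the respiratory chain and the ATP synthase. Its ribosomal RNAs come from mitochondrial DNA, whereas all of its proteins are encoded in the nucleus, made in the cytosol and imported. Some of these proteins descend from bacterial ribosomal proteins, and others are found only in mitochondria. MYC is a transcription factor that activates growth genes; it binds the E-box sequence CACGTG and is known for raising genes of ribosome production and mitochondrial function.

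Messenger RNA was measured in KOPTK1, an established line from a human T-cell leukaemia of the acute lymphoblastic type, in 3 groups of 3 libraries. The shDHX15_MYC cells carried a lentiviral hairpin RNA against DHX15 together with ectopically expressed MYC coding region. The shDHX15 cells carried the hairpin against DHX15, an RNA helicase of spliceosome disassembly, without added MYC, and the shControl cells carried a control hairpin. The labels give all 9 libraries the genotype WT and state as the purpose to test MYC as a target downstream of DHX15. The model is 1 cell line with a hairpin numbered 1, and no label tells if the replicates were grown separately. The p-values therefore cover the spread among libraries alone, which may be technical.

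Total counts per library ran from 42134302 to 59688062. DHX15 had 182, 162 and 156 CPM (counts relative to library size, scaled by the TMM method) in shDHX15 cells, against 284, 278 and 278 CPM in shControl cells, and it had 197, 196 and 192 CPM in shDHX15_MYC cells. MYC had 6922, 7174 and 7197 CPM in shDHX15_MYC cells, 85.3, 91.3 and 84.2 CPM in shDHX15 cells and 110.0, 109 and 109 CPM in shControl cells. Replicate 1 of shDHX15 stood apart from its group, with a chi-square over genes, per degree of freedom, of 18 and 17.1 against replicates 2 and 3, which gave 4.45 against each other. T lineage markers were all detected and summed to 1590 to 1610 CPM in shDHX15_MYC, 2060 to 2130 in shDHX15 and 2450 to 2570 in shControl, on total-count CPM. On the same scale 3 B lineage markers, of which 2 were in the table, summed to 110 to 115 CPM with MYC, 35.7 to 37.8 in shDHX15 and 37.1 to 38 in shControl. The 4 markers of adherent or packaging cells summed to 23.1 to 25.1 CPM with MYC, 7.09 to 7.59 in shDHX15 and 8.4 to 9.02 in shControl. The 3 myeloid markers summed to 3.51 to 4.58 CPM with MYC, 0.222 to 0.576 in shDHX15 and 0.335 to 0.494 in shControl, and erythroid markers to at most 0.227 CPM in any library. The part of such shifts in the results was not tested. These are bulk samples, so fewer cells of a kind and less RNA per cell cannot be told apart. Set against TMM, total-count scaling moved the median log2 fold change of all genes to 0.06 in shDHX15 against shControl, 0.20 in shDHX15_MYC against shDHX15 and 0.28 in shDHX15_MYC against shControl.

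Summed over genes, the members were lowest in the shDHX15 libraries for both subunits. The MRPL genes summed to 2176.6, 2189.3 and 2185.6 CPM in shDHX15_MYC, to 1838.2, 1764.8 and 1777.7 CPM in shDHX15 and to 2076, 2054 and 2084.2 CPM in shControl. The MRPS genes summed to 1280.2, 1293.3 and 1318.9 CPM in shDHX15_MYC, to 1182.2, 1166.6 and 1181.3 CPM in shDHX15 and to 1279.6, 1278.9 and 1283.4 CPM in shControl. The shDHX15 libraries lay below both other groups in both sums, while shDHX15_MYC and shControl overlapped in the MRPS sum and not in the MRPL sum. The MRPL sum over the MRPS sum, a ratio that no scaling of a library can change, was 1.683 ± 0.0231 in shDHX15_MYC, 1.524 ± 0.0269 in shDHX15 and 1.617 ± 0.00987 in shControl (SD, n = 3). Its ranges were apart in all 3 comparisons, with a 2-sided exact permutation p of 0.1 in each, the smallest that 3 libraries against 3 allow. Sums and ratio go by symbol. The MRPS sum thus holds MRPS18A and MRPS30, whose proteins sit in the large subunit, and MRPS36. Mitoribosome proteins with other symbols, such as DAP3 and PTCD3, are left out, and no ratio by structure was made. The shDHX15 sums differed from shControl by -13.4% for MRPL genes and -8.12% for MRPS genes, and the shDHX15_MYC sums from shDHX15 by 21.8% and 10.3%. Sums and their ratio are weighted towards members with high counts. Gene by gene, the median log2 fold change of shDHX15 against shControl was -0.23 for MRPL and -0.23 for MRPS genes. In shDHX15_MYC against shDHX15 it was 0.31 for MRPL and 0.22 for MRPS genes. The percentages of the sums and the MRPS overlap hold for TMM scaling and change with the scaling. The TMM factors were 1.108 to 1.117 in shDHX15_MYC, 0.9686 to 0.9713 in shDHX15 and 0.9245 to 0.9278 in shControl. Sums by subunit were not made on total counts. As a share of all counts, members made up 0.387% in shDHX15_MYC, 0.288% in shDHX15 and 0.31% in shControl.

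**Figure D1:**
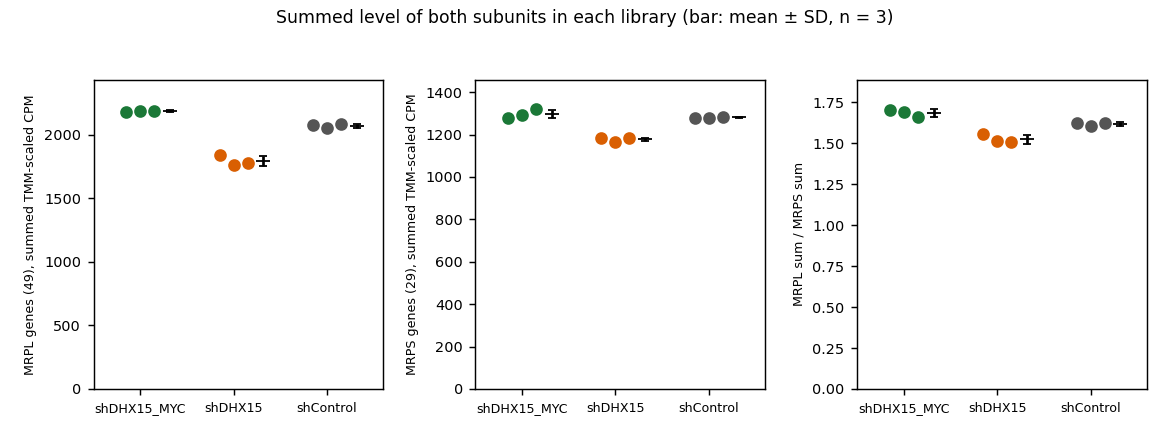
Summed TMM-scaled CPM of the 49 MRPL genes (left) and the 29 MRPS genes (middle) and the ratio of the sums (right), for each library (points) with the mean and SD of 3 libraries (bars). The shDHX15 libraries, at 1764.8 to 1838.2 CPM for MRPL and 1166.6 to 1182.2 CPM for MRPS, lie below both other groups, and the ratio is lowest there.

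Knockdown of DHX15 went with small losses across most of the set. In shDHX15 against shControl, 49 of 78 members were called lower and 6 higher, where a gene is called at an adjusted p under 0.05 from edgeR's quasi-likelihood test over all 15309 genes. Of all tested genes 23% were called lower and 22% higher. The 49 lower members were 31 MRPL and 18 MRPS genes, and the 6 higher ones 2 MRPL and 4 MRPS genes. The median log2 fold change was -0.23 for MRPL and -0.23 for MRPS genes, beside -0.0047 for all tested genes, and members ran from -0.61 to 0.22. No member reached a 2-fold change in either direction, against 2.16% of all genes at 2-fold lower and 0.849% at 2-fold higher. All 3 shDHX15 libraries were below all 3 shControl libraries in 56 members and above them in 7, against 26.6% and 24.4% of all tested genes. With total-count scaling 41 members were called lower and 7 higher, and without replicate 1 of shDHX15 the counts were 54 lower and 10 higher.

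The members with the lowest fold change came from both subunits. MRPL48 (chr11:73787316-73865133, plus strand), of the central protuberance that faces the small subunit, had 21.7, 20.3 and 20.6 CPM in shDHX15 libraries, against 32.8, 33.2 and 29.8 CPM in shControl libraries. All 3 shDHX15 libraries were below all 3 shControl libraries, and MRPL48 fell by a log2 fold change of -0.61 (SE 0.0627, edgeR adjusted p = 6.42e-07). MRPS7, a protein of the small subunit head, had 36.6, 37.1 and 33.9 CPM in shDHX15, against 52.8, 51.2 and 50.8 CPM in shControl, again with no overlap (-0.52, SE 0.0457, edgeR adjusted p = 1.06e-07). MRPL15 had 25.8, 24.8 and 25.9 CPM in shDHX15 and 37.8, 36.1 and 35.4 CPM in shControl (log2 fold change -0.52). MRPL24, at the exit of the tunnel through which the new chain leaves, had 14.8, 13.6 and 14.5 CPM in shDHX15 and 20.4, 20.9 and 19.9 CPM in shControl (-0.51). MRPL10, which carries the L7/L12 stalk where translation factors dock, had 39.5, 33.8 and 35.9 CPM in shDHX15 and 50.2, 51.4 and 51.6 CPM in shControl (-0.49). In each of these 5 genes the groups were apart. MRPL53 also fell (log2 fold change -0.53), to 19.1 ± 2.54 CPM in shDHX15, against 27.5 ± 2.31 CPM in shControl (SD, n = 3 each). However, 45.2% of its exon bases are shared with CCDC142 on the same strand, whose own log2 fold change was -0.36.

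The 6 members called higher changed little. MRPS30, named for the small subunit but placed in the large one, had the highest fold change, with 43.4, 37.8 and 37.3 CPM in shDHX15, against 35.4, 32.9 and 33 CPM in shControl (log2 fold change 0.22, SE 0.0588, edgeR adjusted p = 0.0049). MRPL55, a large subunit protein of the central protuberance, had 28.1, 30.2 and 31.9 CPM in shDHX15 and 24.8, 26.9 and 27.3 CPM in shControl (0.19). MRPL19 and MRPS9, both of bacterial type, had log2 fold changes of 0.19 and 0.18, MRPS6 of 0.16 and MRPS25 of 0.15. MRPS6 shares 9.61% of its exon bases with other genes on the same strand, among them SLC5A3 (mean 224 CPM, log2 fold change 0.48). For MRPS25, 22.2% overlap NR2C2 on the opposite strand (mean 213 CPM, 0.20). The part of such overlaps in these calls was not tested. The calls of MRPL55 and MRPS9 were each lost when any of 3 libraries was left out. Leaving out replicate 2 or 3 of shDHX15 or replicate 1 of shControl ended the call of MRPL55 (0.19, 0.15 and 0.15), and leaving out replicate 3 of shDHX15 or replicate 1 or 2 of shControl that of MRPS9 (0.14, 0.13 and 0.19). MRPL41 was among the 6 highest fold changes without being called (0.16, edgeR adjusted p = 0.422), with 8.17, 12 and 15.4 CPM in shDHX15 and 9.61, 11.4 and 10.8 CPM in shControl. Its shDHX15 libraries spread more widely than those of shControl and enclosed them. Its log2 fold change was 0.36 without replicate 1 of shDHX15, where it was called, and -0.07 without replicate 3.

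**Figure D2:**
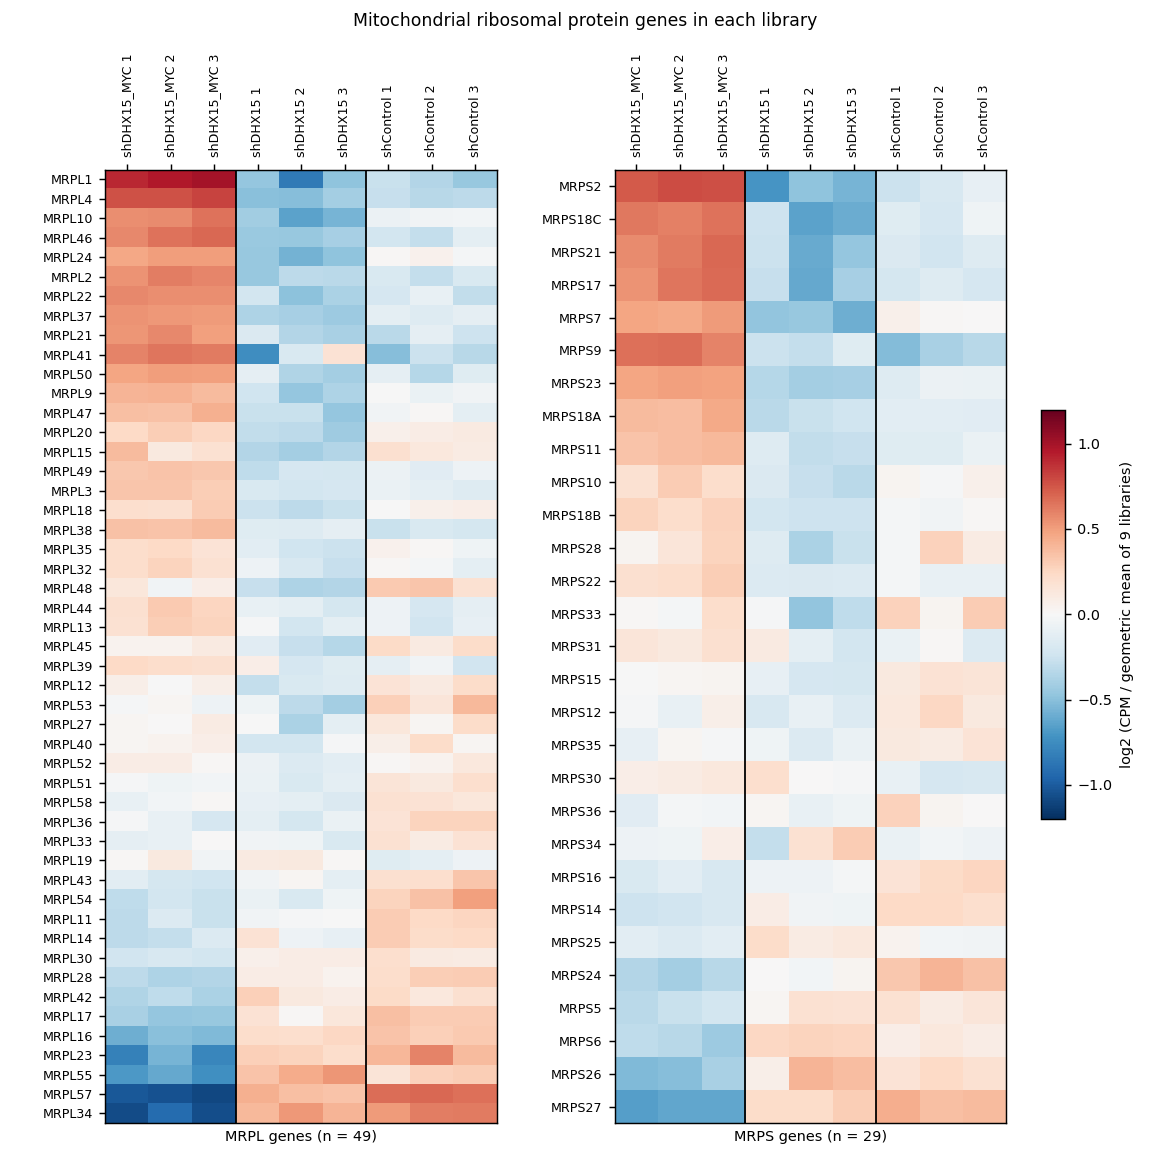
Each row is a member and each column a library; colour is the log2 of TMM-scaled CPM over the geometric mean of the 9 libraries, from blue (low) to red (high). Within each panel rows are ordered by the fold change of shDHX15_MYC against shDHX15, so that MRPL1 stands at the top and MRPL34 at the bottom of the MRPL genes, and MRPS2 at the top and MRPS27 at the bottom of the MRPS genes. Most rows are paler or bluer in shDHX15 than in shControl, and shDHX15_MYC holds both the highest and the lowest values.

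Between shDHX15_MYC and shDHX15, members differed both ways. DHX15 itself was called higher in shDHX15_MYC (log2 fold change 0.23, edgeR adjusted p = 0.000124), so added MYC goes together with a higher DHX15 level. The part of either in the results was not tested. Below, the words with MYC name the comparison of shDHX15_MYC against shDHX15. In shDHX15_MYC against shDHX15, 48 of 78 members were called higher and 20 lower, while 42.1% of all tested genes were called higher and 42.6% lower. By subunit these were 32 MRPL and 16 MRPS genes higher, and 12 MRPL and 8 MRPS genes lower. The median log2 fold change was 0.31 for MRPL and 0.22 for MRPS genes, beside 0.0058 for all tested genes. The all-gene median varied with level, with bounds at mean log2 CPM of 4.778 and 5.511. In low, middle and high classes it was 0.39, -0.16 and -0.25, against 0.39, 0.27 and 0.14 for members. Log2 fold changes of members ran from -1.46 to 1.55. Among members 8 were at least 2-fold higher and 3 at least 2-fold lower, against 21.7% and 14.7% of all genes. All shDHX15_MYC libraries were above all shDHX15 libraries in 48 members and below them in 21, against 42.4% and 42.6% of all tested genes. The split moved with the scaling: total counts gave 55 members higher and 13 lower, with medians of 0.51 and 0.42. There, 2 members called lower with TMM (MRPL43 and MRPS16) had a positive log2 fold change. A fit restricted to genes at or above 3 in mean log2 CPM gave the same 2 counts and medians.

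Among members that rose with MYC, 8 were at 2-fold or more of their shDHX15 level. MRPL1 (chr4:77862520-77952790, plus strand), of the mobile stalk beside the exit site for transfer RNA, had 23.7, 24.6 and 25.2 CPM in shDHX15_MYC, against 9.15, 7 and 9.01 CPM in shDHX15. The groups were far apart, with a log2 fold change of 1.55 (SE 0.0921, edgeR adjusted p = 3.43e-11), the highest of the set. MRPS2 (chr9:135499984-135504673, plus strand), a small subunit protein kept from bacteria, had 66.9, 69.1 and 69 CPM in shDHX15_MYC and 24.6, 28.9 and 27.4 CPM in shDHX15 (1.34, SE 0.0581, edgeR adjusted p = 4.23e-13). MRPL4, which lines the peptide tunnel, had 109, 109 and 113 CPM in shDHX15_MYC and 45.2, 44.9 and 48.2 CPM in shDHX15 (1.26). MRPL10 of the stalk had 77.7, 78.5 and 82.8 CPM in shDHX15_MYC, against 39.5, 33.8 and 35.9 CPM in shDHX15 (1.13). MRPS18C, the small subunit member of the S18 family of 3 paralogues that keeps the bacterial place, had 45.3, 44.6 and 46 CPM in shDHX15_MYC and 24.6, 18.8 and 19.4 CPM in shDHX15 (1.12). Here replicate 1 of shDHX15 was higher than the other 2, and no shDHX15 library reached the lowest shDHX15_MYC value. MRPL46 of the central protuberance rose to 30.1 ± 1.24 CPM in shDHX15_MYC, against 14.3 ± 0.324 CPM in shDHX15 (SD, n = 3 each; 1.08). MRPS21 and MRPS17, small subunit proteins of bacterial type, completed the 8 members at or above 2-fold with log2 fold changes of 1.07 and 1.04. MRPL37, a mitochondria-specific protein with the most counts of all members in shDHX15_MYC, had 210.0, 207 and 206 CPM there and 112, 109.7 and 107 CPM in shDHX15 (0.92).

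The members that fell with MYC were fewer, and 3 of them were at least 2-fold lower. MRPL34 (chr19:17292609-17306843, plus strand), a small basic protein of the large subunit core, had 21.1, 23.5 and 21.3 CPM in shDHX15_MYC, against 58.1, 63.6 and 59.1 CPM in shDHX15. That is 2.74-fold lower (log2 fold change -1.46, SE 0.0552, edgeR adjusted p = 6.45e-14), with the groups well apart. MRPL57 (chr13:21176645-21179084, plus strand) had 25.6, 25.1 and 24.3 CPM in shDHX15_MYC and 69.7, 66.8 and 65.8 CPM in shDHX15, 2.7-fold lower (-1.43, SE 0.0429, edgeR adjusted p = 2.67e-15). MRPL55 had 13.8, 14.5 and 13.3 CPM in shDHX15_MYC and 28.1, 30.2 and 31.9 CPM in shDHX15 (-1.12), so that it was called higher with the knockdown and lower with MYC. MRPL23, at the mouth of the exit tunnel, had the lowest counts of these genes, 4.9, 5.84 and 4.99 CPM in shDHX15_MYC and 10.4, 10.3 and 9.92 CPM in shDHX15 (-0.96). MRPS27, a pentatricopeptide repeat protein of the small subunit, had 38.6, 39.6 and 39.5 CPM in shDHX15_MYC and 71, 71.3 and 74.8 CPM in shDHX15 (-0.88). MRPS26 and MRPL16 followed, each with a log2 fold change of -0.76, and MRPS6 with -0.62. In all of these genes every shDHX15_MYC library lay below every shDHX15 library. Of the exon bases of MRPL34, 13.2% overlap ABHD8 on the opposite strand, which had a log2 fold change of -1.45. Whether the counting used strand is not given in the sources used here. MRPS6 shares 9.61% of its exon bases with other genes on the same strand, among them SLC5A3 (log2 fold change -0.71).

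**Figure D3:**
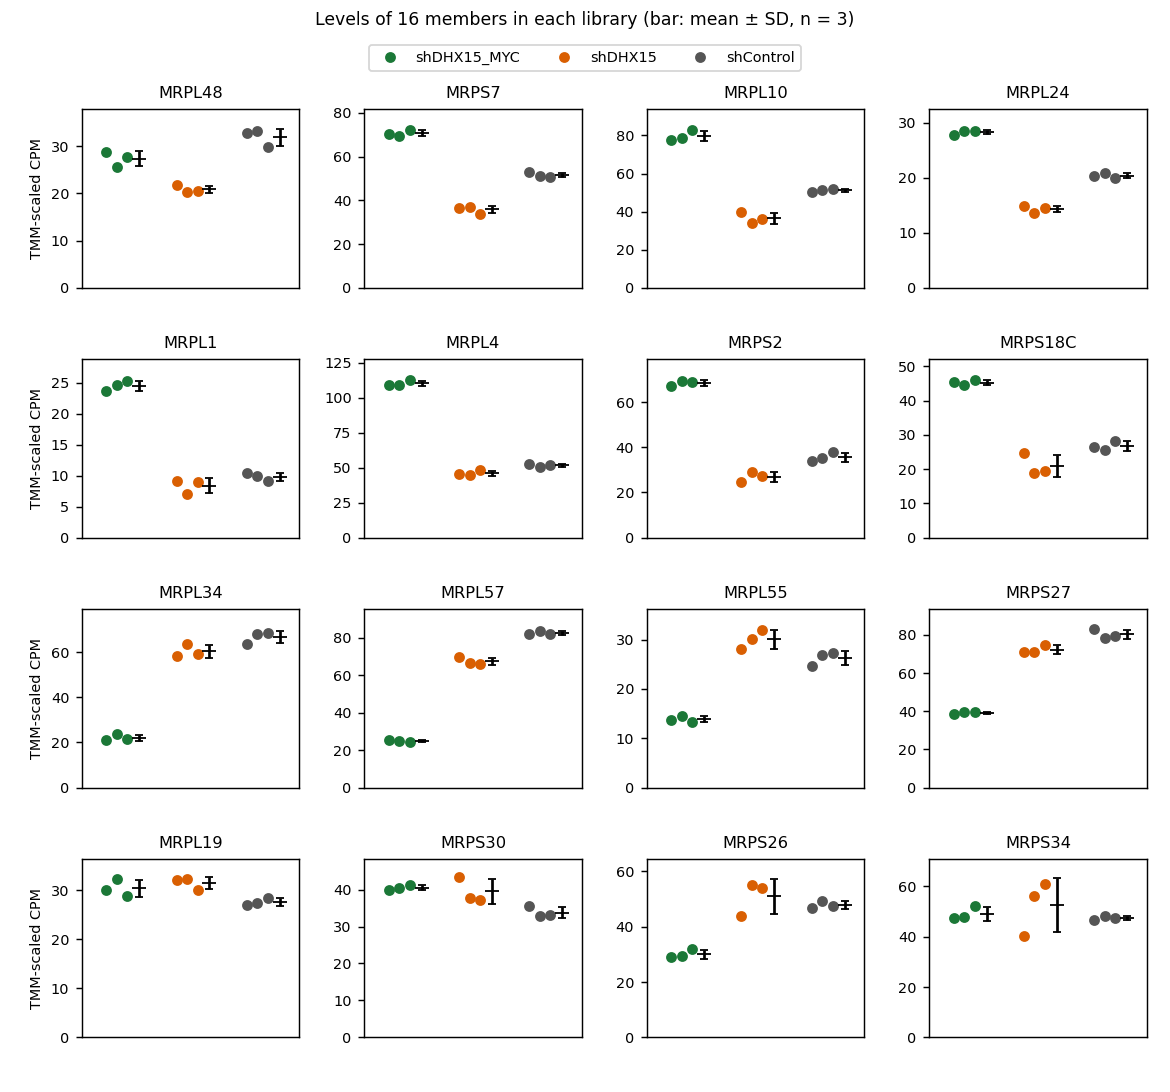
TMM-scaled CPM of 16 members in each library (points; colours give the group), with the mean and SD of 3 libraries beside them; every axis starts at 0. The top row holds members among the lowest with the knockdown, the second row the highest with added MYC, the third members low with MYC and the fourth members higher or uncalled in shDHX15, including MRPS34 with 1 low shDHX15 library.

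Promoter sequences from RefSeq (GRCh38.p14) were searched for 4 motifs on both strands in the 250 bases before each listed start, and 70 of the 78 members matched an entry. The E-box CACGTG, the core site of MYC and MAX, stood in 9 of the 70 (12.9%), in 7.73% of all 27305 genes listed and in 10.9% of the 11422 tested genes with an entry. The site CCGGAAG of ETS factors stood in 25 members (35.7%), against 17.1% of tested genes. The site of NRF1 (GCGCA, any base, then GCGC), a regulator of nuclear genes for mitochondria, stood in 9 members (12.9%), against 10.7% of tested genes, and AAGATGGC of YY1 in 5 (7.14%), against 2.13%. The 9 members with an E-box had a median log2 fold change of 0.57 in shDHX15_MYC against shDHX15, and the other 61 one of 0.20. Over all tested genes with an entry these medians were 0.04 with and 0.01 without the motif. Members with the NRF1 site had a median of -0.26 and those without it 0.25, beside -0.11 and 0.03 over all tested genes with an entry. For the ETS site the medians of members were 0.23 with and 0.19 without, and for YY1 0.19 and 0.23. These medians are a description with no test, and a match is not a bound site.

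The promoters below are those of the 4 E-box members with the highest fold change with MYC and of the 2 members with the lowest, each as the 250 bases before the listed start, 5′ to 3′ on the gene's strand, with motif matches in capitals. MRPS2 lies at chr9:135499715-135499964, MRPS18C at chr4:83455808-83456057, MRPL22 at chr5:154940823-154941072, MRPL37 at chr1:54199917-54200166, MRPL34 at chr19:17292323-17292572 and MRPL57 at chr13:21176408-21176657, all on the plus strand.
MRPS2: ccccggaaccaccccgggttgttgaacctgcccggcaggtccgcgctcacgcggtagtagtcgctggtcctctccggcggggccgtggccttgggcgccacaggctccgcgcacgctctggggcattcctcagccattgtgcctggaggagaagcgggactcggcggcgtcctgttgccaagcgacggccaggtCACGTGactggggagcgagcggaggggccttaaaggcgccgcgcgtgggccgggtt
MRPS18C: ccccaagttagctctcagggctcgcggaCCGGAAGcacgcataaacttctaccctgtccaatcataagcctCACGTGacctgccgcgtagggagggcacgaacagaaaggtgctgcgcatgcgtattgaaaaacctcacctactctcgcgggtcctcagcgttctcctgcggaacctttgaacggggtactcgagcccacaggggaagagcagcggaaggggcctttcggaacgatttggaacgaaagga
MRPL22: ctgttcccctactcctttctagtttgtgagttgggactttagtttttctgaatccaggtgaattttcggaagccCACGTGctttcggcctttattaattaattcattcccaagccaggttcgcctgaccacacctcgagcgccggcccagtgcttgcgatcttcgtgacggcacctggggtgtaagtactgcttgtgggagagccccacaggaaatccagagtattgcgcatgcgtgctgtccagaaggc
MRPL37: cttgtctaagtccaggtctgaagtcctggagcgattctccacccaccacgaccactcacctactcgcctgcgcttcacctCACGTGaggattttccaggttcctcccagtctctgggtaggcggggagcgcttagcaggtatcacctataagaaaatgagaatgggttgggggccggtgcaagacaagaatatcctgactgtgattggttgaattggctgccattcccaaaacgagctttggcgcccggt
MRPL34: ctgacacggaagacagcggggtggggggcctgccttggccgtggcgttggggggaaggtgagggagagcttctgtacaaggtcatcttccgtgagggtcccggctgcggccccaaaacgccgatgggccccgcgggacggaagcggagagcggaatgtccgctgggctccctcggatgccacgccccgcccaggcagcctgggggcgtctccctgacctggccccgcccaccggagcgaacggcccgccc
MRPL57: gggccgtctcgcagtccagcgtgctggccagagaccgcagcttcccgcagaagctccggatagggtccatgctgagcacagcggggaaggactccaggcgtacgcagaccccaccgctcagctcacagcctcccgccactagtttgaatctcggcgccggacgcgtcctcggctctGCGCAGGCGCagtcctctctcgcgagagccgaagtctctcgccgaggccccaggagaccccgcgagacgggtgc
The capitals CACGTG in the first 4 are the E-box, which begins 56 bases before the start of MRPS2, 179 before MRPS18C, 176 before MRPL22 and 170 before MRPL37. The capitals CCGGAAG in MRPS18C are the ETS site, and those in MRPL57 the NRF1 site. The stretch shown for MRPL34, 1 of its 4 listed starts, held none of the 4 motifs, but MRPL34 has an NRF1 match at another listed start and is among the 9 holders. Of the E-box members shown, MRPL22 had 42.6, 42.1 and 42.1 CPM in shDHX15_MYC and 24.6, 20.4 and 22 CPM in shDHX15 (log2 fold change 0.92). The E-box was not shared by all high members, since MRPL1 and MRPL4 held none in this window. Nor were its holders all raised, since MRPL36 and MRPS36, each with an E-box, had log2 fold changes of 0.04 and -0.03 and were not called.

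Set against shControl, cells with both the hairpin and MYC had members on either side of the control level in similar numbers. In shDHX15_MYC against shControl, 38 members were called higher and 31 lower, where 42% and 42.5% of all tested genes were. Of the MRPL genes 24 were higher and 20 lower, and of the MRPS genes 14 and 11. Medians were 0.09 and 0.05, beside 0.017 for all tested genes. In low, middle and high level classes, with the same bounds as above, the all-gene median was 0.39, -0.14 and -0.25. Members in these classes had medians of 0.16, 0.16 and -0.13. The shDHX15_MYC libraries lay wholly above shControl in 38 members and wholly below in 32, against 43.5% and 43.6% of all tested genes, and 3 members were at least 2-fold higher and 4 at least 2-fold lower, against 21.3% and 14.5%. Total counts gave 48 higher and 19 lower, with medians of 0.35 for MRPL and 0.32 for MRPS genes where that of all genes was 0.28. There, 9 members called lower with TMM had a positive log2 fold change, among them MRPL12, MRPL48, MRPL51, MRPL58, MRPS12 and MRPS25. Of the 9, 3 were called higher. The fit on genes at or above 3 in mean log2 CPM gave 42 higher and 20 lower.

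The extremes of this comparison were largely those of shDHX15_MYC against shDHX15. MRPL57 had 25.6, 25.1 and 24.3 CPM in shDHX15_MYC, against 82.3, 83.8 and 82 CPM in shControl, the lowest of the set at 3.31-fold lower (SE of the log2 fold change 0.0429, edgeR adjusted p = 2.39e-16). MRPL34 had a shControl level of 63.4, 67.9 and 68.6 CPM and a log2 fold change of -1.60, MRPL23 one of -1.17 and MRPS27 one of -1.03. At the other end MRPL1 had 23.7, 24.6 and 25.2 CPM in shDHX15_MYC and 10.4, 9.89 and 9.17 CPM in shControl (1.32). MRPL4 had 109, 109 and 113 CPM in shDHX15_MYC and 53, 50.8 and 51.7 CPM in shControl (1.09). MRPS9, of the small subunit head, had 35, 35.3 and 33.4 CPM in shDHX15_MYC and 15.4, 17 and 17.6 CPM in shControl (1.05), and it was already called higher in shDHX15. MRPL41 had 20.6, 21.4 and 21 CPM in shDHX15_MYC and 9.61, 11.4 and 10.8 CPM in shControl (0.98). In these 4 genes all shDHX15_MYC libraries were above all shControl libraries. The comparisons share libraries, so the values of a gene in them are not independent.

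In the stalk and around the exit tunnel members went both ways with MYC, and those of the central protuberance were mostly called higher, with MRPL55 lower. In the L7/L12 stalk, MRPL10 was called higher with MYC (1.13 against shDHX15), as was MRPL12, the protein that contacts elongation factors (0.25), whereas MRPL11 at the stalk base was called lower (-0.22). All 3 fell with the knockdown, MRPL12 to 44.3 ± 2.04 CPM in shDHX15, against 57.5 ± 2.26 CPM in shControl, and MRPL11 to 50.2 ± 0.663 CPM in shDHX15, against 61.4 ± 1.37 CPM in shControl (SD, n = 3 each). Of the exon bases of MRPL12, 68.2% are shared with AC139530.2 on the same strand. The MRPL11 value against shDHX15 was -0.026 with total counts, where it was not called. Around the exit tunnel, MRPL22 (0.92), MRPL24 (0.99) and MRPL45 (0.31), the membrane anchor, were called higher with MYC, and MRPL23 lower (-0.96). In the central protuberance MRPL46 (1.08), MRPL18 (0.51), MRPL38 (0.49), MRPL48 (0.39), MRPL52 (0.19), MRPL27 (0.20) and MRPL40 (0.20) were called higher with MYC, MRPL55, also placed there, was called lower (-1.12) and MRPL58 was not called (0.09). Of all tested genes 42.1% were called higher and 42.6% lower in this comparison. MRPL27 and MRPL40 are close to the threshold, with edgeR adjusted p = 0.0275 for MRPL27 and 0.0331 for MRPL40. Leaving out replicate 2 of shDHX15 gave 0.11 for MRPL27, uncalled, as did replicates 1 and 3 of shDHX15_MYC (0.21 and 0.17). The call of MRPL40 was lost without replicate 1, 2 or 3 of shDHX15_MYC (0.20, 0.20 and 0.18) and without replicate 1 or 2 of shDHX15 (0.16 and 0.17).

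MRPL58, a release factor that became part of the ribosome in the central protuberance, fell with the knockdown to 22.4 ± 0.573 CPM in shDHX15, against 27.4 ± 0.545 CPM in shControl (SD, n = 3 each; log2 fold change -0.29), and was not called with MYC (0.09). In the small subunit, MRPS12 of the decoding centre fell with the knockdown (-0.31) and was not called with MYC (0.14, edgeR adjusted p = 0.0554). Both MRPL58 and MRPS12 passed that threshold with total counts, at 0.29 and 0.33, and with DESeq2, at 0.13 and 0.17. MRPS12 also passed it without replicate 2 of shDHX15_MYC (0.17) or replicate 2 of shDHX15 (0.18). MRPS5, beside the channel where mRNA enters, was not called with the knockdown (-0.01) and was called lower with MYC (-0.40). It shares 8.19% of its exon bases on the same strand with ZNF514, which had a mean of 13.1 CPM and -1.14 with MYC. MRPS24 was called lower in both comparisons (-0.36 and -0.36), with 23.2% of its exon bases shared with the read-through gene URGCP-MRPS24. The 3 paralogues of the S18 family, which share an ancestor and sit in different places, all fell with the knockdown and rose with MYC: MRPS18A of the large subunit with -0.15 and 0.68, MRPS18B with -0.22 and 0.49, and MRPS18C with -0.36 and 1.12. For MRPS18A the knockdown call was lost with total counts (-0.08) and without replicate 1 of shDHX15 (-0.12) or replicate 1, 2 or 3 of shControl (-0.14, -0.14 and -0.15).

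**Figure D4:**
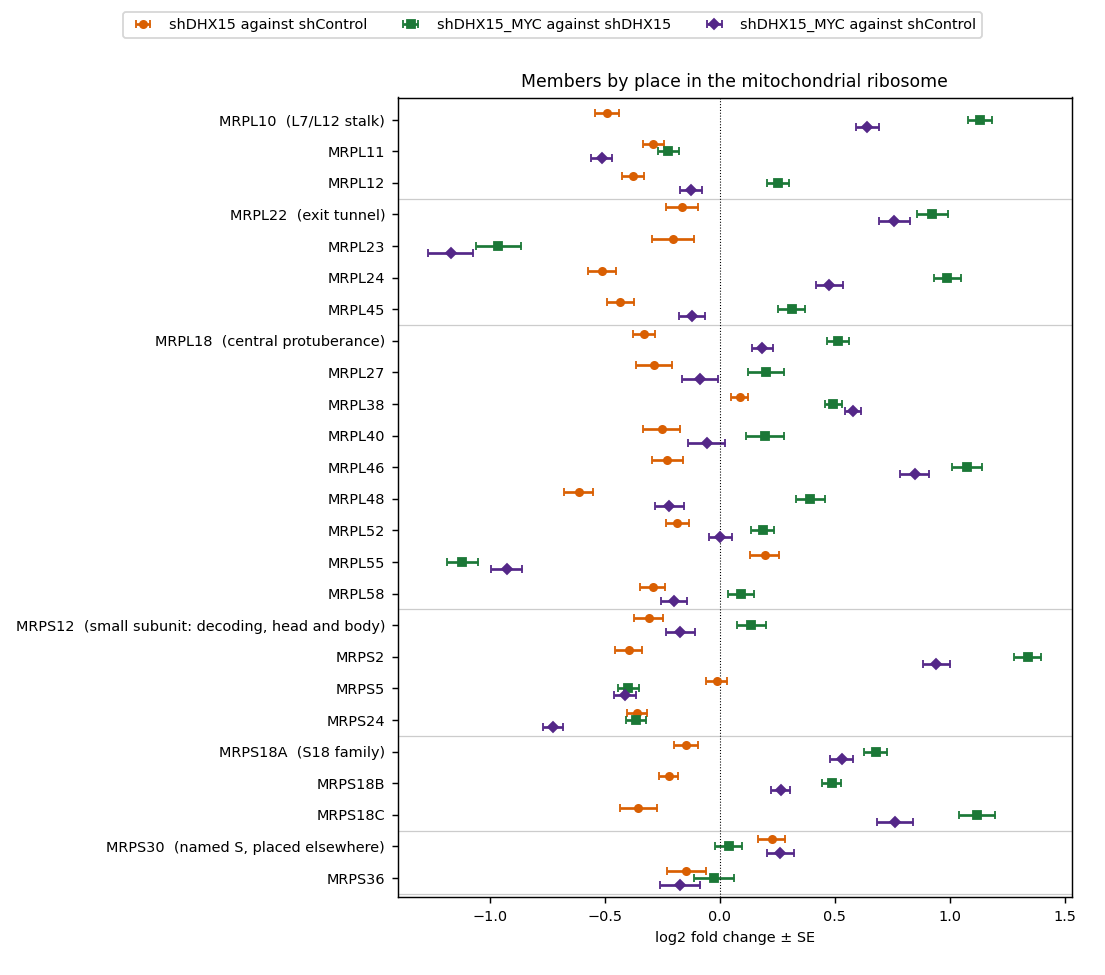
Log2 fold change with its SE for members grouped by their place in the mitoribosome: circles give shDHX15 against shControl, squares shDHX15_MYC against shDHX15 and diamonds shDHX15_MYC against shControl, all with TMM scaling. Squares of the central protuberance members lie right of 0 apart from that of MRPL55 at -1.12. Those of MRPL23, MRPL11, MRPS5 (-0.40), MRPS24 (-0.36) and MRPS36 (-0.03) also lie left of 0. With total counts the shDHX15_MYC against shControl values of MRPL12, MRPL27, MRPL40, MRPL45, MRPL48, MRPL58, MRPS12 and MRPS36 turn positive, the value of MRPS36 against shDHX15 turns positive and that of MRPS5 with the knockdown reaches 0.05.

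Of the 78 members, 2 passed no test in any comparison. MRPS34, a mitochondria-specific small subunit protein, had 47.3, 47.6 and 52.2 CPM in shDHX15_MYC, 40.3, 56 and 61 CPM in shDHX15 and 46.5, 48.2 and 47.4 CPM in shControl. Replicate 1 was the lowest of the shDHX15 libraries and fell below the other 2 groups, which replicates 2 and 3 exceeded. Without that library MRPS34 was called higher in shDHX15 than in shControl (0.30) and lower in shDHX15_MYC than in shDHX15 (-0.26). MRPS36 had 10.8, 11.7 and 11.6 CPM in shDHX15_MYC, 12.1, 11.2 and 11.5 CPM in shDHX15 and 14.4, 12.2 and 11.9 CPM in shControl. Despite its symbol, its protein (also KGD4) is known as part of the 2-oxoglutarate dehydrogenase complex rather than of the mitoribosome. Without replicate 1 of shDHX15, or replicate 2 or 3 of shControl, MRPS36 was called lower in shDHX15_MYC than in shControl (-0.18, -0.22 and -0.23).

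Members descended from bacterial ribosomal proteins and members found only in mitochondria were counted apart, with no test between the classes. Of all tested genes 23% were called lower and 22% higher in shDHX15 against shControl, and 42.1% higher and 42.6% lower in shDHX15_MYC against shDHX15. Among MRPL genes of bacterial type, 18 of 29 were called lower and 1 higher in shDHX15 against shControl (median -0.21), and among mitochondria-specific MRPL genes 13 of 19 lower and 0 higher (-0.25). With MYC against shDHX15, 18 of the 29 were higher and 8 lower (median 0.39), and 14 of the 19 higher and 3 lower (0.30). Among MRPS genes of bacterial type, 13 of 17 were called lower and 2 higher with the knockdown (median -0.26), and 11 higher and 5 lower with MYC (0.49). Among the 10 mitochondria-specific MRPS genes 4 were lower and 2 higher with the knockdown (-0.047), and 4 higher and 3 lower with MYC (0.06), the MYC shares of 40% and 30% being near or below those of all genes. MRPS27 and MRPS26 are among these 3, with -0.88 and -0.76. MRPL55, MRPS28 and MRPS36 were put in neither class. Counting MRPS18A and MRPS30 with the large subunit, where their proteins sit, and leaving out MRPS36 gave 32 of 51 lower and 3 higher for the large and 17 of 26 lower and 3 higher for the small subunit with the knockdown. With MYC against shDHX15 it gave 33 higher and 12 lower for the large and 15 higher and 8 lower for the small subunit.

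Levels of members differed widely from gene to gene. Per kilobase of the principal transcript, shDHX15_MYC levels ran from 3.55 to 140 CPM per kb (median 25.5), shDHX15 levels from 3.79 to 109 (median 22.8) and shControl levels from 4.04 to 97.8 (median 25.8). The ratio of the highest to the lowest was 39.4 in shDHX15_MYC, 28.8 in shDHX15 and 24.2 in shControl. MRPS6 led in shDHX15 at 109 CPM per kb and in shControl at 97.8, and MRPL37 in shDHX15_MYC at 140. Of the exon bases of MRPS6, 9.61% are shared with other genes on the same strand, among them SLC5A3 with a mean of 224 CPM. The part of this overlap in the MRPS6 level was not tested. In shDHX15_MYC MRPS6 stood at 71.3 CPM per kb, having fallen to 70.6 ± 3.5 CPM, against 108 ± 0.805 CPM in shDHX15 (SD, n = 3 each). MRPL50 was lowest in shDHX15 and shControl, at 3.79 and 4.04 CPM per kb, and MRPL42 in shDHX15_MYC, at 3.55. The place of MRPL42 depends on the transcript taken, since its principal transcript has 15582 bases and its median transcript 848. By median transcript length MRPL42 stood at 65.3 CPM per kb in shDHX15_MYC, MRPL50 was lowest there at 6.49, and the ratio of the highest to the lowest was 31.9 in shDHX15_MYC, 38.8 in shDHX15 and 43.5 in shControl. The leaders changed as well, to MRPL38 in shDHX15_MYC (207) and shDHX15 (147) and MRPL51 in shControl (176). Fold changes of members followed transcript length, GC content and level weakly, with Spearman's rho across the 78 genes, which are not independent replicates, between -0.21 and 0.16 in all 3 comparisons. Only 3 members held any 100-base window found at another locus, with a highest share of 0.0857. Exons of 26 members overlap another gene by 10% or more of their bases, 16 of them on the opposite strand, as 47% of MRPS18A with RSPH9, 40.2% of MRPS18C with ABRAXAS1 and 31.3% of MRPL51 with NCAPD2. On the same strand, 68.2% of MRPL12 is shared with AC139530.2 and 37.5% of MRPL38 with AC087289.3.

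Other genes that serve mitochondrial translation were counted in the same fit. Among 17 translation factors, 3 were called lower and 4 higher in shDHX15 against shControl (median 0.047), and 9 higher and 5 lower in shDHX15_MYC against shDHX15 (0.25). The knockdown shares, 17.6% lower and 23.5% higher, are near the 23% and 22% of all tested genes, and with MYC 42.1% of all tested genes were higher and 42.6% lower. TACO1, an activator of COX1 translation, had 55.1, 56.9 and 57.7 CPM in shDHX15_MYC and 23.3, 24.1 and 25.1 CPM in shDHX15 (1.23). MTIF3, an initiation factor, had 9.45, 9.03 and 9.36 CPM in shDHX15_MYC and 21.4, 19.2 and 19.9 CPM in shDHX15 (-1.12), so that the 2 factors lay on opposite sides. Among 30 assembly and ribosomal RNA maturation factors, 17 were lower and 1 higher with the knockdown (median -0.15), and 16 higher and 10 lower with MYC (0.28). ERAL1, which binds the small subunit RNA, rose to 83.3 ± 1.55 CPM in shDHX15_MYC, against 34.8 ± 1.28 CPM in shDHX15, and MRM3, a methyltransferase of the large subunit RNA, to 44.8 ± 1.44 CPM in shDHX15_MYC, against 17.4 ± 0.642 CPM in shDHX15 (SD, n = 3 each). RBFA, another small subunit factor, fell to 12.2 ± 0.338 CPM in shDHX15_MYC, against 33.5 ± 0.522 CPM in shDHX15 (SD, n = 3 each). Of 5 mitoribosome proteins with other symbols, 3 were lower and 1 higher with the knockdown and 4 lower with MYC, among them PTCD3 (-0.31) and DAP3 (-0.19).

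Cytosolic ribosomal protein genes gave another pattern. Of 78 tested, 77 were called lower in shDHX15 against shControl (median -0.51), 69 lower and 3 higher in shDHX15_MYC against shDHX15 (-0.67) and 78 lower in shDHX15_MYC against shControl (-1.16). Of all tested genes 23% were called lower and 22% higher with the knockdown, and 42.6% lower and 42.1% higher with MYC. In shDHX15_MYC against shControl these shares were 42.5% and 42%. Nuclear-encoded respiratory chain and ATP synthase subunits, 81 genes, had 54 lower and 1 higher with the knockdown (-0.23), and 49 lower and 21 higher with MYC (-0.25). The 13 mitochondrially encoded genes, whose mRNAs the mitoribosome translates, had 11 lower and 1 higher with the knockdown (-0.15), and 11 higher and 0 lower with MYC (0.95). The rise with MYC was uneven, with quartiles of 0.11 and 1.53. MT-ND1 of complex I, the highest, had 2488, 2534 and 2576 CPM in shDHX15_MYC and 611, 582 and 585 CPM in shDHX15 (2.10). MT-CO1, with the most counts (means of 13620 CPM in shDHX15_MYC and 13490 in shDHX15), was not called (0.013), nor was MT-CO2 (-0.012). The 13 genes took 6.63% ± 0.0379 of all counts in shDHX15_MYC, 3.77% ± 0.1 in shDHX15 and 3.93% ± 0.0603 in shControl (SD, n = 3). The medians are set side by side as descriptions, and no test of the difference between lists was made.

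**Figure D5:**
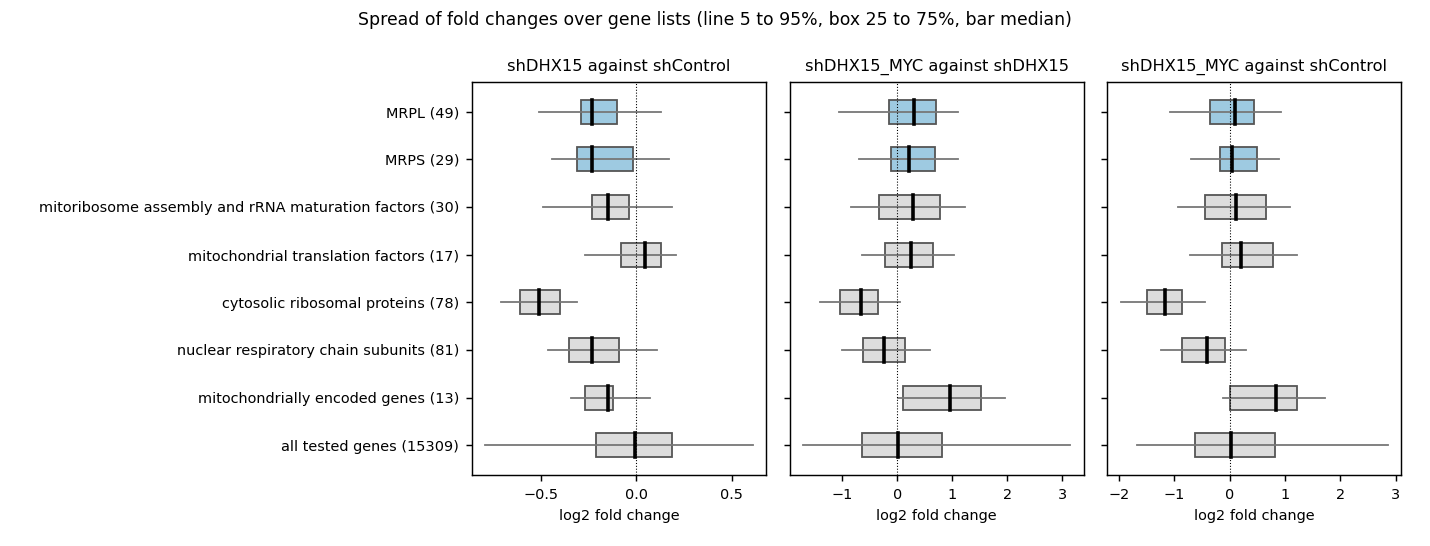
Log2 fold changes over MRPL genes, MRPS genes (blue) and comparison lists (grey), with the number of tested genes in brackets, in the 3 comparisons with TMM scaling; lines span 5 to 95%, boxes 25 to 75% and bars mark medians. With MYC against shDHX15 the medians of MRPL (0.31) and MRPS genes (0.22) lie right of 0 while those of cytosolic ribosomal proteins (-0.67) and respiratory chain subunits (-0.25) lie left of it.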

How the data were processed

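KOPTK1 libraries were made from poly(A) RNA and read from both ends for 150 bp, per the labels' protocols. Reads were handled with HISAT2 2.2.1, FastQC 0.11.9 and DESeq2 1.32.0 on the build hg38, per the submitters' processing notes. Which program counted reads, whether by strand and on which annotation, is not given in the sources used here. Unscaled whole-number read counts of 17637 genes in 9 libraries were deposited by the authors. Columns were joined to samples by name: those named for a GFP hairpin were taken as shControl, those named for hairpin 1 as shDHX15, and those that add MYC as shDHX15_MYC, the labels giving no other target.

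Genes were kept by filterByExpr (15309), scaled by TMM and fitted in edgeR 4.0.16 (R 4.3.3) with 1 mean per group over all 9 libraries. Each of 3 comparisons was tested 2-sided by the quasi-likelihood F test with Benjamini-Hochberg adjustment over the 15309 genes, and a gene is called where the adjusted p is below 0.05. Log2 fold changes have an SE taken from the fold change and its F value. Levels are TMM-scaled CPM with the SD of 3 libraries. Total counts of 42134302 to 59688062 put the limit that a count of 0 allows (3 counts) at 0.0503 to 0.0712 CPM, for counting error only. Levels per kilobase use the length of the principal transcript in GENCODE v29, to which 95.1% of symbols matched. The fit was tested on simulated counts.

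The members and the comparison lists were chosen with earlier results of these data known. Members named singly are the 6 highest and 6 lowest of each comparison, the 5 with the highest level of each subunit, those called in no comparison, those with the largest opposite changes and members of known place in the ribosome; E-box holders, MRPS17, MRPS21, MRPL33, MRPL42, MRPL43, MRPL50, MRPL52, MRPS15 and MRPS35 and genes that overlap a member were named after their values were seen. Comparison lists give up to 4 genes each. Alternatives were DESeq2 1.42.0, other scalings and filters, a replicate block and leaving out each library.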

Additional observations from a re-analysis of the deposited data

How the results depend on the processing

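With total counts the median log2 fold change in shDHX15 against shControl was -0.16 for MRPL and -0.16 for MRPS genes. In shDHX15_MYC against shDHX15, members called lower numbered 13 with total counts and 13 among genes at or above 3 in mean log2 CPM, and the medians were 0.51 for MRPL and 0.42 for MRPS genes under both. In shDHX15_MYC against shControl, members called lower numbered 19 with total counts and 20 among genes with that minimum; medians were 0.35 and 0.30 for MRPL and 0.32 and 0.26 for MRPS genes. The MRPL median there was 0.13 with DESeq2, 0.13 with RLE size factors and 0.14 with subunits assigned by structure. The total-count shifts follow from the scaling itself, which moves all genes. With DESeq2 and with RLE size factors the all-gene median in shDHX15_MYC against shControl was 0.06, beside 0.017 in the main fit. Assignment by structure changes the genes that are counted. For the fit with a minimum level the cause was not tested.

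Leaving out 1 library gave 4 to 10 members called higher in shDHX15 against shControl, the 10 without replicate 1 of shDHX15. Medians ranged from -0.25 to -0.18 for MRPS genes and from -0.25 to -0.20 for MRPL genes in that comparison, from 0.27 to 0.38 for MRPL and 0.16 to 0.31 for MRPS genes in shDHX15_MYC against shDHX15, and from 0.0047 to 0.11 for MRPL and 0.0011 to 0.11 for MRPS genes in shDHX15_MYC against shControl.

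Among members followed through all alternatives, signs changed as follows. In shDHX15_MYC against shControl, with total counts and then among genes with the minimum level, MRPL12 was at 0.14 and 0.09, MRPL27 at 0.18 and 0.13, MRPL40 at 0.21 and 0.16, MRPL45 at 0.14 and 0.09, MRPL51 at 0.07 and 0.023, MRPL58 at 0.06 and 0.013, MRPS12 at 0.09 and 0.04, MRPS25 at 0.13 and 0.08 and MRPS36 at 0.09 and 0.04; MRPL48 was at 0.045 with total counts. In shDHX15_MYC against shDHX15, in the same order, MRPL19 was at 0.15 and 0.15, MRPS16 at 0.08 and 0.08, MRPS34 at 0.10 and 0.10 and MRPS36 at 0.17 and 0.17. MRPS36 was also at 0.012 with DESeq2, 0.012 with RLE size factors and ranged from -0.05 to 0.0053 with 1 library left out. Over left-out libraries MRPS34 ranged from -0.26 to 0.013 and MRPS30 from -0.0075 to 0.10 there, and in shDHX15 against shControl MRPL41 from -0.07 to 0.36 and MRPS5 from -0.048 to 0.035. MRPS5 was at 0.05 with total counts and 5.8e-05 among genes with the minimum level. Of other called members, total counts turned MRPL43 (0.05) in shDHX15_MYC against shDHX15 and MRPL33 (0.05), MRPS15 (0.14, called) and MRPS35 (0.11) against shControl. Levels per kilobase by median instead of principal transcript length were chosen after seeing the data.

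Libraries with the same number did not deviate together (r across genes from -0.019 to 0.0636), so the numbers were not taken as pairs. With a replicate block, all 135 results of the members followed through the alternatives kept their direction and their side of the threshold. Over all 78 members, 6 were called higher and 50 lower in shDHX15 against shControl, beside 6 and 49 in the main fit. Called members numbered 48 higher and 20 lower in shDHX15_MYC against shDHX15, and 38 higher and 31 lower in shDHX15_MYC against shControl, as in the main fit.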
